A study of Homo sapiens with 6 samples.

Results

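Phospholipase D (PLD) and phospholipase A2 (PLA2) enzymes cut membrane phospholipids at different bonds. PLD removes the head group and leaves phosphatidic acid, whereas PLA2 releases a fatty acid and leaves a lysophospholipid. Phosphatidic acid can be converted to diacylglycerol or used as a precursor of other glycerolipids, and the arachidonic acid that PLA2 releases is the substrate for prostaglandin synthesis. Expression of 9 such genes was compared in BT-549 cells exposed to the secretions of fat cells. The genes are PLD1, PLD2, PLD3, PLD6, PLA2G4A, PLA2G4C, PLA2G6, PLA2G12A and PLA2G15, found by symbol among the 63140 genes listed, and 9 of 9 passed the filter on low counts that 14451 genes passed.

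BT-549 is a human triple negative breast cancer line, used here without a transgene. Cells were grown for 24 h in adipocyte-conditioned medium (ACM, 3 libraries) or in unconditioned medium (UCM, 3 libraries). ACM was medium with insulin, oleate, albumin and little serum that had been kept on mouse OP9 cells while they differentiated into adipocytes. The formula of UCM is not stated in the sources used here, so the secretions of OP9 cells cannot be told apart from any difference in serum, oleate, albumin or insulin. The sample labels describe diluted ACM and the supplementary methods undiluted ACM for these libraries. The sample records also list the same serum percentage for every ACM and UCM library. That percentage is higher than the one the supplementary methods give for the medium that became ACM. Whether the media differed in serum is therefore not settled. Replicates were wells of 1 cell line, nothing states that they were separate cultures, and p-values therefore measure the spread between these wells, which may be technical.

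The libraries held between 17135288 and 21053257 expected counts. An expected count is the number of reads that RSEM assigns to a gene after sharing out reads that fit several transcripts or genes. Markers of epithelial cells (EPCAM, CDH1, KRT8, KRT18 and KRT19) summed to at most 2.80 CPM (counts scaled by library size) in any library, and 1 of these 5 genes passed the filter on low counts, although the labels call the cells epithelial. The mesenchymal markers VIM, FN1, CDH2 and ZEB1 summed to at least 4117 CPM in every library. Of the 7 adipocyte markers, ADIPOQ, LEP and CIDEC had no count in any library, and the list summed to 2.08 to 3.10 CPM in ACM and 1.40 to 1.92 CPM in UCM, nearly all of it CFD. ESR1 and PGR had no count in any library, and ERBB2, listed with them as low in triple negative cells, had 61.6 to 75.0 CPM. Replicate 1 stood apart in UCM, since the chi-square of the counts per gene was 2.32 between UCM replicates 2 and 3 but 19.9 to 21.5 between either of them and UCM replicate 1. ACM replicate 1 differed about as much from UCM replicate 1 (18.3) as from ACM replicate 2 (19.0). ACM replicate 3 was at 17.7 from UCM replicate 3 and 19.3 from UCM replicate 2, against 15.6 and 13.2 from ACM replicates 1 and 2. ACM replicate 2 was farther from the UCM libraries, at 39.6 to 41.7.

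The PLD family is defined by a catalytic motif, HKD, in which a histidine, a lysine and an aspartate are spaced at fixed distances. Its codons were located in the coding sequence of the main GENCODE 44 transcript of each PLD gene, on GRCh38, and are printed to show what the PLD genes share whatever their level. The capitals mark the histidine, lysine and aspartate codons, 5′ to 3′ on the coding strand.
PLD1, chr3:171688802-171688825, minus strand: CATgagAAGcttgtcatcattGAC
PLD1, chr3:171620405-171620428, minus strand: CACagcAAGttgttaattgctGAT
PLD2, chr17:4815803-4815826, plus strand: CATgagAAGctcctggtggtgGAC
PLD2, chr17:4819176-4819199, plus strand: CACagcAAGgtgctcatcgcaGAT
PLD3, chr19:40370160-40370183, plus strand: CATaccAAGttctgggtggtgGAC
PLD6, chr17:17203037-17203060, minus strand: CATcacAAGtttgccatcgtgGAC
Each of these stretches of 24 bases lies within a single coding exon. The search took a histidine codon, 1 codon of any kind, a lysine codon, 4 codons of any kind and an aspartate codon, in frame and on the coding strand only. PLD1 and PLD2 held 2 matches each, and PLD3 and PLD6 held 1 each. Among 19619 coding sequences, 723 (3.69%) had at least 1 match and 39 (0.199%) had at least 2.

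No PLD or PLA2 gene passed the test from the counts. Of 9 genes, 0 had an adjusted p at or below 0.05 by edgeR's quasi-likelihood test, where 5.56% of all 14451 genes tested passed (3.35% higher and 2.21% lower in ACM). At an unadjusted p at or below 0.05, 1 gene was higher in ACM (PLD3) and 1 was lower (PLA2G12A), where 23.3% of all genes passed in either direction. DESeq2 on the same counts also called 0 of 9, with 2 at an unadjusted p. The median log2 FC of ACM against UCM was 0.04 over the 9 genes, with 5 positive and 4 negative, and -0.01 over all genes tested. With the fold threshold of the study (0.58 on the log2 scale) and an unadjusted p of 0.05 or less in this edgeR fit, 0 of 9 genes passed. Of all genes tested, 4.12% were higher and 1.71% lower in ACM at these thresholds. The study made its own calls with DESeq2, and those calls were not used here. PLD1 and PLA2G12A met these thresholds once RSEM's effective lengths entered the count test as offsets, in edgeR and in DESeq2. At these thresholds, 560 of 14450 genes tested with offsets were higher and 272 lower by edgeR, and 561 and 251 by DESeq2. PLA2G4A met them without ACM replicate 3, where 688 of 14770 genes were higher and 275 lower. PLA2G12A also met them without both libraries numbered 1, where 736 of 14393 genes were higher and 345 lower. In bulk RNA a lower level per cell and a lower share of expressing cells cannot be told apart.

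**Figure D1:**
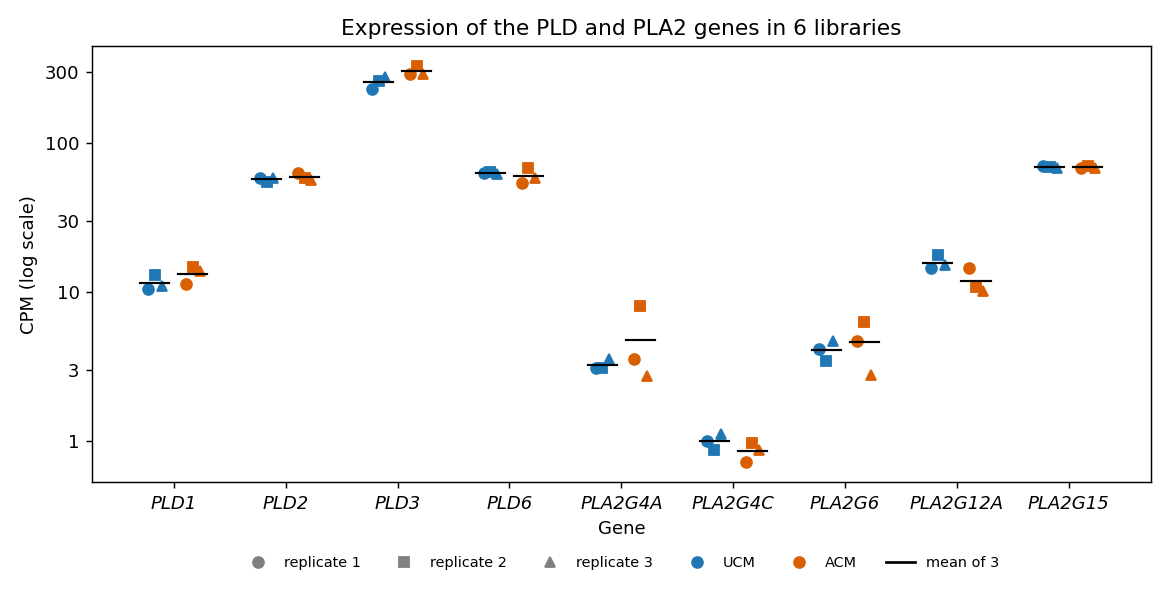
CPM of each PLD and PLA2 gene in the 3 UCM (blue) and 3 ACM (orange) libraries, on a log axis, with 1 marker shape per replicate and a black line at the mean of 3. PLD3 is the only 1 of 9 genes whose groups do not overlap, and PLA2G4A has a single high ACM library at 8.06 CPM.

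PLD1 and PLD2 make phosphatidic acid from phosphatidylcholine. PLD1 is switched on by ARF GTPases and protein kinase C, and PLD2 is known for a higher basal activity. PLD1 (ENSG00000075651, chr3:171600404-171810950, minus strand) had 11.3, 14.6 and 13.8 CPM in ACM and 10.5, 13.1 and 11.0 CPM in UCM. The groups overlapped, and the log2 FC was 0.20 (SE 0.14, 95% interval -0.12 to 0.52, edgeR adjusted p = 0.455). With effective lengths as offsets it was 2.35 (edgeR adjusted p = 0.19) and 2.55 (DESeq2 adjusted p = 0.122). PLD2 (ENSG00000129219, chr17:4807152-4823434, plus strand) had 62.6, 57.8 and 56.2 CPM in ACM and 58.6, 55.2 and 58.2 CPM in UCM. Its replicates lay close together and its interval was narrow, with a log2 FC of 0.04 (SE 0.07, 95% interval -0.13 to 0.20, edgeR adjusted p = 0.807).

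PLD3 and PLD6 belong to the family by sequence but act elsewhere in the cell. PLD3 is a protein of late endosomes and lysosomes known as an exonuclease of single-stranded nucleic acids, and PLD6 sits on the outer mitochondrial membrane, where it is known for cleaving cardiolipin and for a role in piRNA biogenesis. PLD3 (ENSG00000105223, chr19:40348456-40389472, plus strand) had 290.9, 330.9 and 291.4 CPM in ACM and 230.2, 261.6 and 277.7 CPM in UCM. All ACM libraries were above all UCM libraries, as they were for 13.9% of all genes tested (29% did not overlap in either direction), and the means were 304.4 ± 22.95 and 256.5 ± 24.2 CPM (SD, n = 3). The log2 FC of PLD3 was 0.25 (SE 0.09, 95% interval 0.06 to 0.44), with an edgeR adjusted p of 0.118. PLD3 passed with every gene of at least 1 count kept (edgeR adjusted p = 0.0282) and with the replicate number added as a block (edgeR adjusted p = 0.0362). Those fits called 1724 of 25486 genes and 1612 of 14451 genes, against 804 of 14451 in the main fit. Whether the replicate numbers pair the libraries was not settled. PLD6 (ENSG00000179598, chr17:17200995-17206333, minus strand) had 53.8, 67.7 and 58.0 CPM in ACM and 62.5, 63.7 and 61.6 CPM in UCM. The UCM libraries of PLD6 lay within the range of the ACM libraries, and the log2 FC was -0.07 (SE 0.09, 95% interval -0.27 to 0.13, edgeR adjusted p = 0.713). PLD6 lies within MPRIP on the opposite strand, which had 4948 to 6613 expected counts per library, and whether the counting used strand is not given in the sources used here.

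The cytosolic PLA2 genes had few counts, and their intervals were wide. PLA2G4A encodes the calcium-dependent enzyme known for releasing arachidonic acid, PLA2G4C a membrane-bound relative that does not need calcium, and PLA2G6 the calcium-independent enzyme of another group. PLA2G4A (ENSG00000116711, chr1:186828949-186988981, plus strand) had 3.52, 8.06 and 2.72 CPM in ACM and 3.08, 3.07 and 3.56 CPM in UCM. ACM replicate 2 alone was high, at 143 expected counts against 50 to 74 in the other 5 libraries. The log2 FC of PLA2G4A was 0.55 (SE 0.38, 95% interval -0.31 to 1.42, edgeR adjusted p = 0.432) and was -0.05 without ACM replicate 2. PLA2G4C (ENSG00000105499, chr19:48047843-48110817, minus strand) had 15 to 17 expected counts per library in ACM and 16 to 21 in UCM, with a log2 FC of -0.22 (SE 0.36, 95% interval -1.02 to 0.57, edgeR adjusted p = 0.763). The values of PLA2G4C within this interval cannot be told apart with so few counts and libraries. PLA2G6 (ENSG00000184381, chr22:38111495-38214778, minus strand) had 4.71, 6.25 and 2.77 CPM in ACM and 4.12, 3.44 and 4.67 CPM in UCM. ACM replicates gave both the highest and the lowest value, and the log2 FC of PLA2G6 was 0.17 (SE 0.28, 95% interval -0.46 to 0.80, edgeR adjusted p = 0.779). Without ACM replicate 2 it was -0.12, and with effective lengths as offsets it was 0.66 (edgeR adjusted p = 0.399). Part of PLA2G6 overlaps MAFF on the opposite strand, which had 545 to 726 expected counts in ACM and 208 to 418 in UCM, and the part of these reads in the PLA2G6 values was not tested.

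PLA2G15 and PLA2G12A work outside the cytosol. PLA2G15 encodes the lysosomal phospholipase A2, and PLA2G12A a small enzyme of the secreted class. PLA2G15 (ENSG00000103066, chr16:68245304-68261058, plus strand) had 68.3, 69.9 and 68.2 CPM in ACM and 69.7, 69.5 and 68.0 CPM in UCM. This gene had the narrowest interval of the 9, with a log2 FC of -0.01 (SE 0.07, 95% interval -0.15 to 0.14, edgeR adjusted p = 0.972). PLA2G12A (ENSG00000123739, chr4:109709989-109730070, minus strand) had 14.5, 10.8 and 10.1 CPM in ACM and 14.4, 17.6 and 15.0 CPM in UCM. ACM replicate 1 was level with UCM replicate 1, and the other ACM libraries were below all UCM libraries. The means of PLA2G12A were 11.8 ± 2.33 and 15.7 ± 1.70 CPM (SD, n = 3), with a log2 FC of -0.41 (SE 0.16, 95% interval -0.75 to -0.06, edgeR adjusted p = 0.151). With both libraries numbered 1 left out, a comparison added after seeing the data, the log2 FC was -0.63 (edgeR adjusted p = 0.0189).

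Counts measure reads per gene, whereas TPM also divides them by the gene's effective length. The effective length is a mean over the transcripts of the gene, weighted by the abundance that RSEM estimates for each, less a part for the length of the sequenced fragments. In 3960 genes with a single transcript of at least 2000 bases, that part was 275.9 to 282.6 bases in the median per library, and all genes lay within 1 base of it. For a gene with several transcripts the effective length therefore moves when reads are assigned to longer or shorter transcripts. Among all genes with a length in every library, the longest effective length was at least 2 times the shortest in 6.35%.

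**Figure D2:**
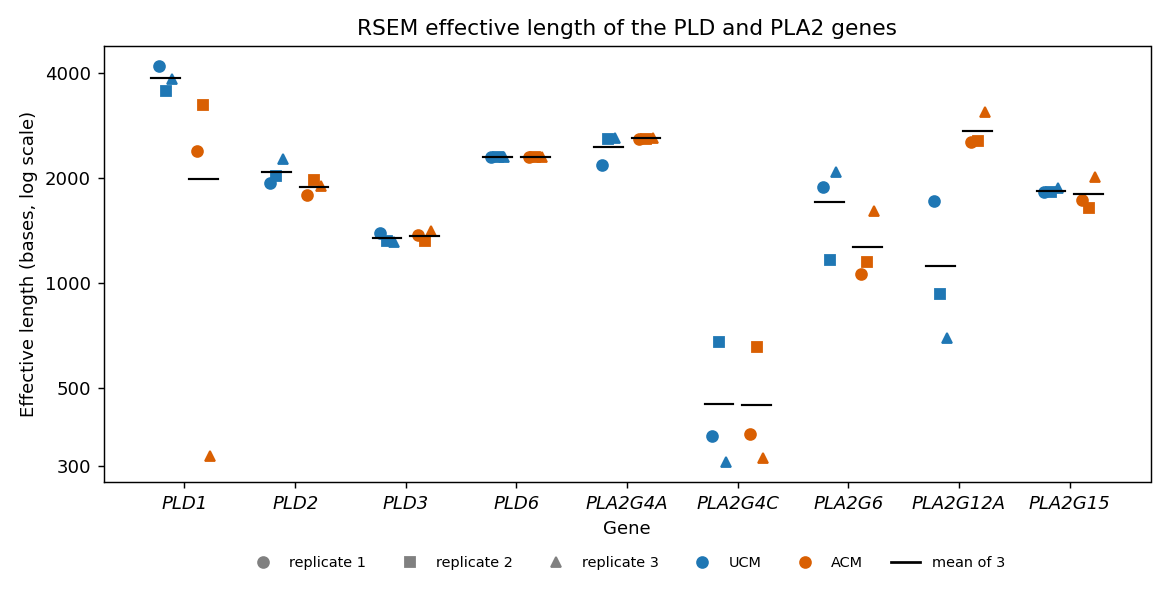
Effective length in bases of each PLD and PLA2 gene in the 3 UCM (blue) and 3 ACM (orange) libraries, on a log axis, with 1 marker shape per replicate and a black line at the mean of 3. PLD1 drops to 318.9 bases in ACM replicate 3, and all ACM libraries of PLA2G12A are longer than all its UCM libraries.

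The effective length of PLA2G12A was greater in every ACM library than in every UCM library. It was 2535, 2557 and 3102 bases in ACM and 1726, 932.6 and 695.5 bases in UCM. The shortest ACM value was 1.47 times the longest UCM value, and a gap of at least that size between the groups, in either direction, was found in 15 of 14450 genes (0.104%). The cutoff was the gap of PLA2G12A itself, and the 14450 genes include genes with a single transcript, whose length hardly moves. Genes with similar counts and several transcripts were not compared separately. The log2 difference in length was 1.39 (SE 0.37, 95% interval 0.40 to 2.38), with an unadjusted p of 0.0162 and an adjusted p of 0.776 by limma. Of 9 genes, 0 passed in effective length at the adjusted p and 1 at an unadjusted p, where 0.0138% and 5.32% of all genes passed. Groups of effective lengths did not overlap for PLD1 and PLA2G12A, against 9.19% of all genes.

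PLA2G12A has 4 transcripts in the annotation, and the lengths differ mainly at the 3′ end. PLA2G12A-201 is 5219 bases long and PLA2G12A-202 is 1189 bases, and the others are 755 and 245 bases. Both PLA2G12A-201 and PLA2G12A-202 have 4 exons and the stop codon at chr4:109714377-109714379. After it, the last exon of PLA2G12A-201 continues for 4388 bases of 3′ UTR (chr4:109709989-109714376) and that of PLA2G12A-202 for 460 bases (chr4:109713917-109714376). The last 30 bases of each, on the minus strand of GRCh38, show where the transcripts end, with a polyadenylation signal AATAAA in capitals where there is one.
PLA2G12A-201, chr4:109709989-109710018, minus strand: ataataattattAATAAAactgtaaaggga
PLA2G12A-202, chr4:109713917-109713946, minus strand: gaaattttaaatacacatttatgcctagaa
AATAAA, searched on the transcript's strand only, was found in the last 30 bases of 11271 of 19701 main transcripts (57.2%). It stands in the end of PLA2G12A-201, and these letters are not in the end of PLA2G12A-202. Other forms of the signal were not searched for, so whether PLA2G12A-202 has one was not tested.

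The effective length limits the share of PLA2G12A molecules that RSEM can have assigned to PLA2G12A-201, since all other transcripts are shorter. That share lay between 40.3% and 51.3% in ACM replicate 1, between 40.9% and 51.8% in ACM replicate 2 and between 54.3% and 62.8% in ACM replicate 3. In UCM it lay between 20.3% and 35.0% in replicate 1, between 0.590% and 18.9% in replicate 2 and between 0% and 14.1% in replicate 3. The ranges of the 3 ACM libraries were above those of the 3 UCM libraries. They are limits on RSEM's own estimate for libraries in which PLA2G12A had 186 to 327 expected counts, and they carry no counting error. A readthrough gene, ENSG00000285330, overlaps PLA2G12A on the same strand and had at most 1.45 expected counts in any library.

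**Figure D3:**
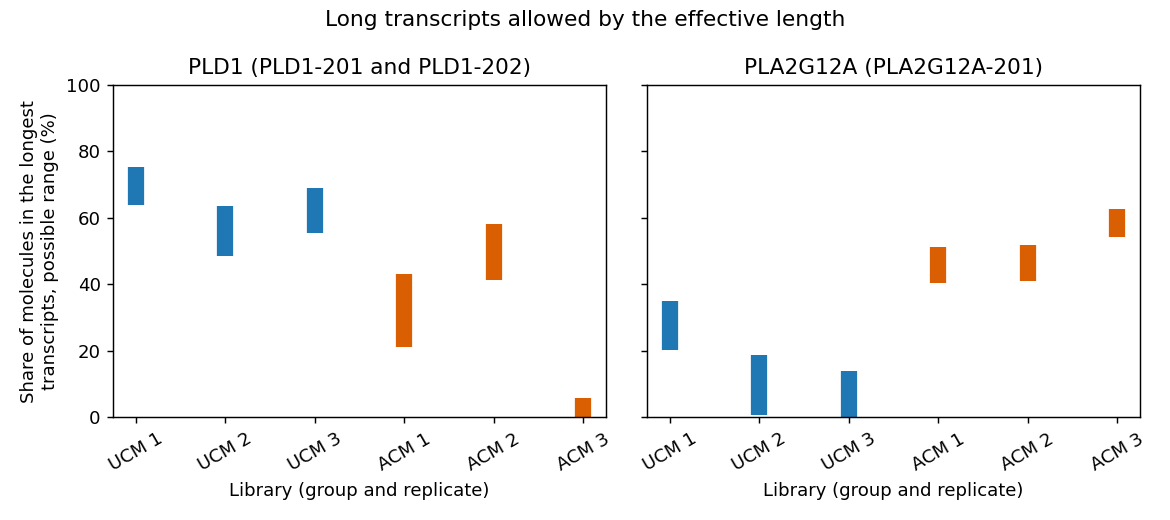
Range of the share of molecules, in percent, that the effective length allows for PLD1-201 with PLD1-202 (PLD1) and for PLA2G12A-201 (PLA2G12A) in each UCM (blue) and ACM (orange) library. The ACM bars of PLA2G12A, from 40.3% upwards, lie above its UCM bars, which end at 35.0% or below, while the PLD1 bars of the groups overlap.

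In TPM, PLA2G12A was the only 1 of 9 genes that passed the test. Its TPM was 8.05, 5.85 and 4.71 in ACM and 12.1, 26.6 and 31.0 in UCM. All ACM libraries were below all UCM libraries, as they were for 14.6% of all genes tested, and the means were 6.20 ± 1.70 and 23.2 ± 9.91 TPM (SD, n = 3). PLA2G12A fell by 1.68 on the log2(TPM + 1) scale (SE 0.32, limma adjusted p = 0.041), where 2.29% of all genes tested passed in either direction and 0.837% were lower. Of the mean log2 difference in TPM without a pseudocount, -1.83, the CPM part was -0.42 and the effective length part was 1.39, which is subtracted. Leaving out any of the libraries ACM replicate 1, ACM replicate 2, ACM replicate 3, UCM replicate 2 or UCM replicate 3 ended the call (limma adjusted p = 0.0537, 0.141, 0.102, 0.162 and 0.15). With the effective lengths as offsets in the count test, the log2 FC of PLA2G12A was -1.86 (edgeR adjusted p = 0.0391).

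PLD1 had the widest spread of effective length among the 9 genes. Its values were 2395, 3247 and 318.9 bases in ACM and 4204, 3548 and 3852 bases in UCM. The longest was 13.2 times the shortest, and a ratio at least as high was found in 11 of 14450 genes (0.0761%). Here too the cutoff was the gene's own value, and the share is not one among genes with similar counts and several transcripts. ACM replicate 3 gave the short value, although its 253 expected counts were within the 238 to 259 of the ACM libraries. PLD1 has 16 annotated transcripts, of which PLD1-201 (6015 bases) and PLD1-202 (5855 bases) hold the long coding sequences of 3222 and 3108 bases, and the other 14 are 174 to 1773 bases long. The share of these long transcripts lay between 0% and 5.72% in ACM replicate 3, between 21.3% and 43.0% in ACM replicate 1 and between 41.3% and 58.2% in ACM replicate 2. In UCM it lay between 64.0% and 75.4% in replicate 1, between 48.5% and 63.7% in replicate 2 and between 55.5% and 69.1% in replicate 3. ACM replicate 2 and UCM replicates 2 and 3 had overlapping ranges.

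The TPM of PLD1 was highest in the library where its effective length was shortest. It was 6.68, 6.22 and 62.3 TPM in ACM and 3.63, 5.20 and 4.08 TPM in UCM. All ACM values were above all UCM values, as for 11% of all genes tested, and ACM replicate 3 was about an order of magnitude above the other ACM libraries. The mean in ACM was 25.1 ± 32.3 TPM (SD, n = 3), and the log2(TPM + 1) difference was 1.53 (SE 0.72, 95% interval -0.12 to 3.18, limma adjusted p = 0.286). Without ACM replicate 3 it was 0.50 (limma adjusted p = 0.215). The mean log2 difference of PLD1 was 0.20 in CPM, -1.51 in effective length and 1.69 in TPM.

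**Figure D4:**
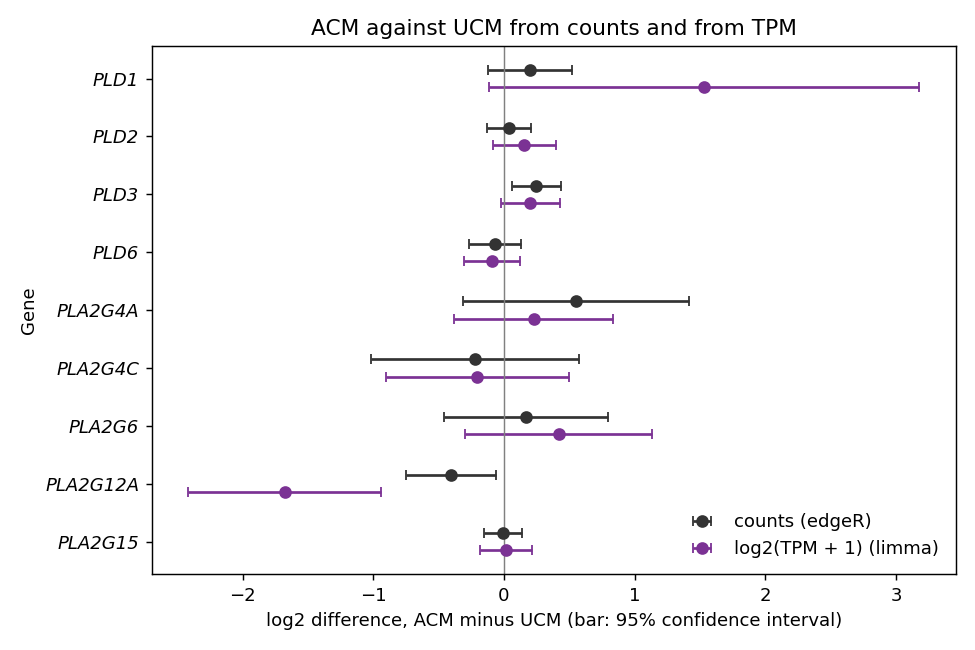
Log2 difference of ACM minus UCM for each PLD and PLA2 gene from the counts (black, edgeR) and from log2(TPM + 1) (purple, limma), with bars for the 95% confidence interval over 3 libraries per condition. PLA2G12A moves from -0.41 to -1.68 and PLD1 from 0.20 to 1.53 between the scales, and the other genes stay nearer to their count value.

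The other 7 genes differed less between the scales. PLA2G6 had effective lengths of 1062, 1147 and 1613 bases in ACM and 1894, 1164 and 2086 bases in UCM, and its log2(TPM + 1) difference was 0.42 (limma adjusted p = 0.501). PLA2G4C had effective lengths of 306.3 to 678.9 bases, with the longest in replicate 2 of each condition. PLD6 has a single annotated transcript, and its effective length stayed between 2295 and 2302 bases. PLD3 overlapped between conditions in TPM, at 299.4, 346.1 and 298.5 in ACM and 239.8, 279.4 and 302.1 in UCM, with a log2 difference of 0.20 (limma adjusted p = 0.302).

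Per length, the order of the genes was led by PLD3 in both media. In UCM, PLD3 had 273.8 ± 31.6 TPM (SD, n = 3), followed by PLA2G15 with 53.7 ± 1.78, PLD2 with 39.7 ± 3.75 and PLD6 with 39.0 ± 0.602 TPM. The libraries of PLD2 and PLD6 overlapped. PLA2G12A came next, and the libraries of PLD1 (4.30 ± 0.809 TPM), PLA2G4C (3.64 ± 1.72 TPM) and PLA2G6 (3.51 ± 0.569 TPM) overlapped. PLA2G4A had the lowest mean, 1.89 ± 0.204 TPM, with libraries below those of PLA2G6 but overlapping those of PLA2G4C, whose lowest was 1.79 TPM. In ACM, PLD3 (314.6 ± 27.2 TPM) was above all other genes in every library, and below it each gene overlapped with the next, in the order PLA2G15, PLD2, PLD6, PLD1, PLA2G12A, PLA2G6, PLA2G4C and PLA2G4A. The overlap of PLD1 with PLD6 rests on ACM replicate 3, where PLD1 had 62.3 TPM. Its other ACM libraries had 6.68 and 6.22 TPM, whereas PLD6 had at least 33.1 TPM.

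The genes whose CPM followed PLD1 and PLD3 most closely over the 6 libraries are given as a description. Among 13349 genes that averaged 1 CPM or more, PLD1 was most like CDT1 (Pearson r = 0.989 of log2 CPM), TBC1D15 (r = 0.980) and RIBC2 (r = 0.976). PLD3 was most like SIAE (r = 0.997), JUND (r = 0.994) and DYRK1B (r = 0.994). The points are the same 6 libraries in each case, and no p is given for the highest of 13349 values.

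Genes linked to the same lipids, as enzymes, regulators or receptors, were compared as 7 lists. In these lists 10 of 98 tested genes passed the count test, against 5.56% of all genes tested. The lists were chosen with earlier results of these data known, and the shares are given as a description. Other PLD-type phospholipases gave 0 of 1 tested gene, NAPEPLD, which makes N-acylethanolamines (log2 FC 0.05, edgeR adjusted p = 0.88). PLD4, PLD5 and GPLD1 did not pass the filter on low counts. Among 15 tested genes for other PLA2 and platelet-activating factor hydrolases, 1 was higher and 1 lower, with a median log2 FC of 0.03. PNPLA3, a lipid droplet hydrolase, had 8.32, 6.25 and 6.69 CPM in ACM and 12.1, 12.3 and 13.1 CPM in UCM, and it fell by 0.82 on the log2 scale (SE 0.15, edgeR adjusted p = 0.014). PNPLA6, a lysophospholipase, had 129.5 to 147.7 CPM in ACM and 109.8 to 116 CPM in UCM, and it rose by 0.30 on the log2 scale (SE 0.07, edgeR adjusted p = 0.0354).

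Regulators of PLD gave 1 higher and 2 lower of 16 tested genes, with a median log2 FC of 0.02. CYTH3, an exchange factor for the ARF GTPases that activate PLD, had 31.8, 28.7 and 32.5 CPM in ACM and 42.6, 48.8 and 47.6 CPM in UCM. The groups of CYTH3 were well apart, and it fell by 0.58 on the log2 scale (SE 0.09, edgeR adjusted p = 0.00707). CDC42, a small GTPase, fell by 0.32 (SE 0.07, edgeR adjusted p = 0.0334), and RALA, a GTPase known to bind PLD1, rose by 0.32 (SE 0.07, edgeR adjusted p = 0.0335).

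Genes that convert phosphatidic acid gave 0 higher and 1 lower of 20 tested, with a median log2 FC of -0.04. LPIN1, a phosphatidic acid phosphatase that makes diacylglycerol, had 18.3, 15.9 and 15.1 CPM in ACM and 23.8, 27.8 and 28.6 CPM in UCM. It was lower in every ACM library and fell by 0.70 on the log2 scale (SE 0.12, edgeR adjusted p = 0.00893). Lysophospholipid genes gave 1 higher and 1 lower of 22 tested, with a median of 0.08. LPCAT1, which puts a fatty acid back on lysophosphatidylcholine, had 447.1, 571 and 505.4 CPM in ACM and 176, 207.1 and 211.8 CPM in UCM. Its means were 507.8 ± 62.0 and 198.3 ± 19.5 CPM (SD, n = 3), and it rose by 1.36 on the log2 scale (SE 0.10, edgeR adjusted p = 0.000551). MBOAT1, an acyltransferase for other lysophospholipids, had 12.3 to 19.6 CPM in ACM and 25.2 to 29.6 CPM in UCM, and fell by 0.75 (SE 0.16, edgeR adjusted p = 0.0258).

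The list for arachidonic acid and its products, receptors included, gave 2 higher and 0 lower of 11 tested genes, with a median log2 FC of 0.11. PTGES, which makes prostaglandin E2, had 2.38, 4.90 and 3.53 CPM in ACM and 1.66, 1.34 and 0.758 CPM in UCM. It rose by 1.499 on the log2 scale (SE 0.36, edgeR adjusted p = 0.0405), from a level of under 2 CPM in UCM. PTGER4, a receptor for prostaglandin E2, had 61.2, 75.3 and 69.1 CPM in ACM and 43.0, 43.3 and 52.5 CPM in UCM, and rose by 0.57 (SE 0.10, edgeR adjusted p = 0.0146). Phospholipase C genes gave 0 of 13 by edgeR, with 0 higher and 2 lower at an unadjusted p. The count was 1 by DESeq2, without ACM replicate 1 and without UCM replicate 1. Among them PLCG1, with the highest mean CPM, had a log2 FC of 0.02 (edgeR adjusted p = 0.887). LPCAT1, LPIN1 and CYTH3 passed in 9 of 9 alternatives, which were RLE size factors, DESeq2, the replicate number as a block and each library left out. Effective lengths as offsets, other filters and leaving out both libraries numbered 1 were not tried for these lists. The other 7 genes lost their calls without ACM replicate 2 (edgeR adjusted p = 0.0555 to 0.176) and without UCM replicate 2 (edgeR adjusted p = 0.0574 to 0.169). Without UCM replicate 3, PTGER4 alone of these 7 passed, without ACM replicate 3 the calls of CDC42, RALA, PTGES and PTGER4 were lost, and without ACM replicate 1 those of PNPLA6, CDC42 and MBOAT1.

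**Figure D5:**
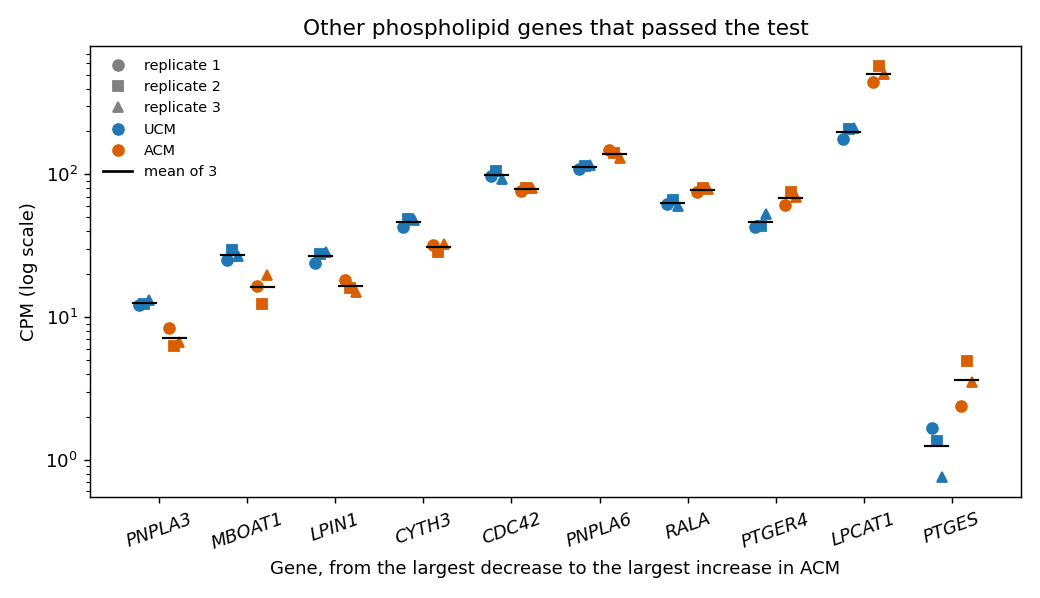
CPM, on a log axis, of the 10 genes of the phospholipid lists that passed the count test, in the 3 UCM (blue) and 3 ACM (orange) libraries, with 1 marker shape per replicate and a black line at the mean of 3. The genes run from PNPLA3, which fell by 0.82 on the log2 scale, to PTGES, which rose by 1.499. In each of them the libraries of the media do not overlap, as for 29% of all genes tested. Selection by the count test on the same libraries makes this likely.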

How the data were processed

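RNA was measured in 3 ACM and 3 UCM wells of BT-549 cells as polyA-enriched paired reads, grouped by sample title. Reads were trimmed (Trim Galore), aligned to GRCh38 (STAR) and quantified (RSEM) by the authors, who deposited 1 output per library. Versions, the annotation used and strand settings are not given in the sources used here. The authors deposited expected counts, which are not scaled for library size, TPM, and effective lengths in bases. A deposited table of the authors' own fold changes and p-values was not used.

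Expected counts were rounded. R 4.3.3 with edgeR 4.0.16 (TMM, filterByExpr, robust quasi-likelihood test) compared all 14451 genes, with Benjamini-Hochberg adjustment over all of them and a call at 0.05. CPM was scaled by library size after TMM. limma 3.58.1 tested log2(TPM + 1) and log2 effective length, and DESeq2 1.42.0 was an alternative. Fits were tested on simulated data. In the simulated TPM the effective length of a gene was the same in every library, so the TPM test was not checked for changes in length. Identifiers of 61547 of 63140 genes matched GENCODE 44 with their version, and 62541 without it, which gave symbols, transcripts and sequences. Total counts of 17135288 to 21053257 and 3 libraries per group limit precision.

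The genes and the 7 phospholipid and 4 marker lists (174 symbols in all, 174 matched) were chosen with earlier results of these data known. Named genes were the 9 genes and, from each phospholipid list, up to 5 called genes by size of change or else the gene with the highest mean CPM. PLD1 and the gene with the lowest p were compared with all others for likeness. Alternatives were other normalizations, filters and pseudocounts, effective lengths as offsets, the replicate number as a block, and each library left out.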

Additional observations from a re-analysis of the deposited data

How the results depend on the processing

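From the counts, 0 of 9 PLD and PLA2 genes passed, also with each library left out. 1 passed with effective lengths as offsets in edgeR and in DESeq2 (PLA2G12A), with at least 1 count in total or the replicate block (PLD3, adjusted p = 0.0362 with the block), and without both libraries numbered 1 (PLA2G12A). With offsets in edgeR and DESeq2, the log2 FC of PLD1 moved from 0.20 to 2.35 and 2.55, and that of PLA2G6 from 0.17 to 0.66 and 0.67, neither called. Over all genes, 804 calls became 1211 with DESeq2, 406 with edgeR offsets, 1724 with at least 1 count, 1612 with the block, 1743 without both libraries numbered 1, and 195 (without UCM replicate 2) to 1310 (without UCM replicate 1) with 1 library left out. In TPM, 1 PLD or PLA2 gene became 0 with every gene of TPM above 0, and 0 to 1 with 1 library left out. The 331 calls in TPM over all genes became 31 with every gene of TPM above 0, 220 without both libraries numbered 1, and 48 (without UCM replicate 2) to 301 (without UCM replicate 1) with 1 library left out. In effective length, 2 calls became 1 with at least 10 counts in every library, 0 with the block, 0 without both libraries numbered 1, and 0 to 1 with 1 library left out. The 10 called genes of the phospholipid lists became 17 with the block (1 of them a phospholipase C gene) and 3 (without UCM replicate 2) to 15 (without UCM replicate 1) with 1 library left out. The cause was not tested.

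Direction turned only for differences that were not called. The log2 FC of PLA2G15 was 0.0039 with RLE size factors, 0.0038 with DESeq2, 0.0474 and 0.0531 with offsets in edgeR and DESeq2, 0.0088 with at least 10 counts and 0.0192 without both libraries numbered 1, where that of PLD6 was 0.0162 and the log2 length difference of PLA2G4C -0.006 (PLD6 and PLA2G4A at 0). With 1 library left out, the log2 FC ranged from -1e-04 to 0.0685 for PLD2, -0.1648 to 0.0122 for PLD6, -0.0485 to 0.8303 for PLA2G4A, -0.1177 to 0.4218 for PLA2G6, -0.0165 to 0.0102 for PLA2G15, -0.0493 to 0.1432 for NAPEPLD and -0.0195 to 0.0897 for PLCG1. The log2 TPM difference ranged from -0.0943 to 0.4435 for PLA2G4A, -0.5327 to 0.041 for PLA2G4C and -0.0407 to 0.0926 for PLA2G15. The log2 length difference ranged from -3e-04 to 0.0018 for PLD6, -3e-04 to 0.1287 for PLA2G4A, -0.3082 to 0.3454 for PLA2G4C and -0.1263 to 0.0234 for PLA2G15.

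Whether the shared replicate numbers pair the libraries was not settled. Same-numbered ACM and UCM libraries had correlations of deviations of 0.359, 0.0364 and 0.228, of which the first was the highest of any ACM and UCM pair. ACM replicate 3 correlated best with UCM replicate 2 (0.244). Depth limits PLA2G4C most, at 15 to 21 expected counts per library.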
